A study of Mus musculus with 2 samples.

Results

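CTCF peaks that lie far from every other CTCF peak were described in the kidney of B6NCrl mice on the day of birth (0 days). CTCF is a zinc-finger protein that binds a long, directional DNA motif. Together with the cohesin ring it anchors chromatin loops, and pairs of sites whose motifs point at each other often form the ends of a loop. It is also known at insulators between neighbouring regulatory domains and at many promoters.

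A peak counted as isolated when its summit lay more than 100 kb from every other summit on its chromosome. The peaks are those of the deposited optimal list, a list the authors kept by a reproducibility threshold, on chromosomes 1 to 19. Of 63796 such peaks, 1472 were isolated, or 2.31%. Chromatin immunoprecipitation and sequencing with a CTCF antibody had been done in 2 libraries of 1 group, numbered as biological replicates 1 and 2. One biosample and one donor identifier cover both of them in the labels, so the spread between them may be technical. They name no sex, no treatment and no second group. Whole kidney holds many cell types, and a peak list cannot say in which of them a site was bound. The lists hold no read counts, so depth is unknown. With 1 group, and with peaks that are not replicates, no test was made, and shares are given with 95% Wilson intervals that cover counting error only.

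The distance to the nearest other summit had a median of 152 kb among isolated peaks, with quartiles of 120 and 212 kb, against 5.94 kb among the other 62324 peaks. It was over 200 kb at 421 isolated peaks, over 500 kb at 56 and over 1000 kb at 5. Peaks on either side of the 100 kb limit had similar values. The 111 peaks whose nearest summit lay up to 5 kb beyond the limit had a median signal percentile of 43.9 and a motif match at 73.9%. The 121 peaks up to 5 kb short of it had 44.8 and 68.6%.

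The bases under these peaks are shown first, because the isolated sites carry the same kind of motif as CTCF sites elsewhere, at places where no other site is near. All positions are mm10, 1-based, and sequences come from the RefSeq copy of GRCm38.p6, the same assembly. Capitals mark the 19-base stretch that best fitted a CTCF motif matrix learned from non-isolated peaks. The 1st set shows the matches, with 20 bases on each side, at 9 of the 10 isolated peaks with a match among the 12 of highest signal (the one in Ppp2r2b is not printed), each named by the nearest protein-coding transcription start site (TSS) and read on the strand of the motif.
Samd12 (chr15:54070142-54070200, forward strand): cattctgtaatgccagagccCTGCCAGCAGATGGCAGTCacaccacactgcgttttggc
Rab32 (chr10:10558256-10558314, reverse strand): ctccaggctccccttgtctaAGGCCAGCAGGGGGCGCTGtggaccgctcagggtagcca
Lmo3 (chr6:138477750-138477808, forward strand): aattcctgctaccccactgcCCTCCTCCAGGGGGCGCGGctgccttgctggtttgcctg
Cpne8 (chr15:90680128-90680186, forward strand): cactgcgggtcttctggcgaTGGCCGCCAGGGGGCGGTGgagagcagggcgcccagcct
Pkn2 (chr3:143379364-143379422, reverse strand): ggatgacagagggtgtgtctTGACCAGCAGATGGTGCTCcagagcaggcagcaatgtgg
Nrsn1 (chr13:25932982-25933040, forward strand): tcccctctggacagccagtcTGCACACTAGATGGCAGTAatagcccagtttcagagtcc
Frg1 (chr8:41573215-41573273, forward strand): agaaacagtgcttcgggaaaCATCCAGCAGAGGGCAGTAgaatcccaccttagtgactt
Irx1 (chr13:71458554-71458612, forward strand): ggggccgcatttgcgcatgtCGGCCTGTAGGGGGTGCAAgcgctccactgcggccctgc
Tent5a (chr9:85328546-85328604, reverse strand): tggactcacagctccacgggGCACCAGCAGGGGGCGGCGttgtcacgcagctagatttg

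The 2nd set shows the matches at the 6 peaks that lay farthest from any other summit.
Vmn1r66 (chr7:10354860-10354918, forward strand): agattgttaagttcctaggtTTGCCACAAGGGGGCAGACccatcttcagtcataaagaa
Olfr1177-ps (chr2:88356453-88356511, forward strand): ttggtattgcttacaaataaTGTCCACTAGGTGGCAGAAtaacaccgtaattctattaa
Tpm3-rs7 (chr14:112895744-112895802, reverse strand): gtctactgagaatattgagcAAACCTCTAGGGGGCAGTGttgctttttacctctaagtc
Ptprd (chr4:79052771-79052829, reverse strand): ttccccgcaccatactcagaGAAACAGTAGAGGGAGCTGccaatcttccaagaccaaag
Cdh7 (chr1:108827402-108827460, reverse strand): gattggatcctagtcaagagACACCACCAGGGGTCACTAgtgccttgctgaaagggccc
Efna5 (chr17:61321045-61321103, reverse strand): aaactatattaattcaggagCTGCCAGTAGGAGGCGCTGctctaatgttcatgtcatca

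The consensus of the matrix was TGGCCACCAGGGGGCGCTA. Among isolated peaks with a match, C stood at position 5 in 99.8% of the 1039 matches, and G at position 10 in 100% and at position 13 in 99.3%, counted from 1 at the 5′ end of the match. At matches of other peaks these values were 99.8%, 99.96% and 99.2%. Matches were picked by their fit to a matrix with these bases, so such high shares are in part fixed by the search. Other positions were freer. The C at position 15 was present in 74.7% of matches at isolated peaks, against 81.8% of matches at other peaks, and the G at position 16 in 37.2% against 43.8%. A CG dinucleotide, the pair that DNA methylation targets in mammals, occurred in 22.7% of matches at isolated peaks and in 36.9% of matches at other peaks. At positions 15 and 16 the values were 15.5% and 28.2%. Methylation was not measured. The sequence around isolated peaks was also poorer in G and C in general, as given below, and its part in the difference was not tested.

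Longer stretches show the sequence that surrounds a match: the whole Samd12 peak, and 300 bases from within the Tcerg1l and Vmn1r66 peaks. The Samd12 peak, the isolated peak of highest signal, has 1 match in capitals. The peak nearest to Tcerg1l, next in signal, has no stretch that passed the threshold (best score 11.5 bits, threshold 12.9). The Vmn1r66 peak is the most isolated of all and near the bottom of the list by signal.
Samd12 peak (chr15:54070038-54070332, forward strand): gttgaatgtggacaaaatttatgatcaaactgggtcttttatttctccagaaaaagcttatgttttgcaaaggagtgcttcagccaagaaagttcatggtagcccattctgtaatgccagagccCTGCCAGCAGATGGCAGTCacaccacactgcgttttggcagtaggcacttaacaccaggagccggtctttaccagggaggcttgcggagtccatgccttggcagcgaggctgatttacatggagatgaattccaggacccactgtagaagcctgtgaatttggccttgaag
Tcerg1l, within the peak (chr7:138084105-138084404, forward strand): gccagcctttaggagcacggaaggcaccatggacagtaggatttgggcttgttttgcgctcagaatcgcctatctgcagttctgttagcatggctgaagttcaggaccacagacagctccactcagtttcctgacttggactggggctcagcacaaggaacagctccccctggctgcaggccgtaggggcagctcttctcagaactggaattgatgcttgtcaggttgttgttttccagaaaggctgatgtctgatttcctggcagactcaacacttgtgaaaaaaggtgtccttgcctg
Vmn1r66, within the peak (chr7:10354770-10355069, forward strand): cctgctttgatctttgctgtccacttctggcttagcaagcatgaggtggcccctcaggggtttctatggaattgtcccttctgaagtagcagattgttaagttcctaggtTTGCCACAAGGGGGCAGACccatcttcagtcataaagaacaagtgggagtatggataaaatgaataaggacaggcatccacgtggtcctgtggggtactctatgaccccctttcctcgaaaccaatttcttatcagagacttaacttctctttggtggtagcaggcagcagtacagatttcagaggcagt

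Isolated peaks had middling signal and were rarely among the highest. The signal is the authors' value for each peak, used here only as a percentile within the list. The median percentile was 44.4 for isolated peaks, with quartiles of 24.1 and 66.03, against 50.2 for other peaks, with quartiles of 25.02 and 75.3. In the highest decile of signal lay 39 isolated peaks, 2.65% of them, against 10.2% of other peaks. In the highest 5% lay 8 isolated peaks (0.543%), against 5.11% of other peaks, and 2 reached the highest 1%. The lowest decile held 9.51% of isolated and 10.01% of other peaks, and the lowest 5% of signal held 3.60% and 5.03%. The shortfall was thus larger at the upper end of the range than at the lower end. Peaks that are not isolated but lie more than 100 kb from a TSS also had low values: the median percentile was 43.0 for isolated peaks that far from a TSS and 44.8 for the other 6646 such peaks.

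**Figure D1:**
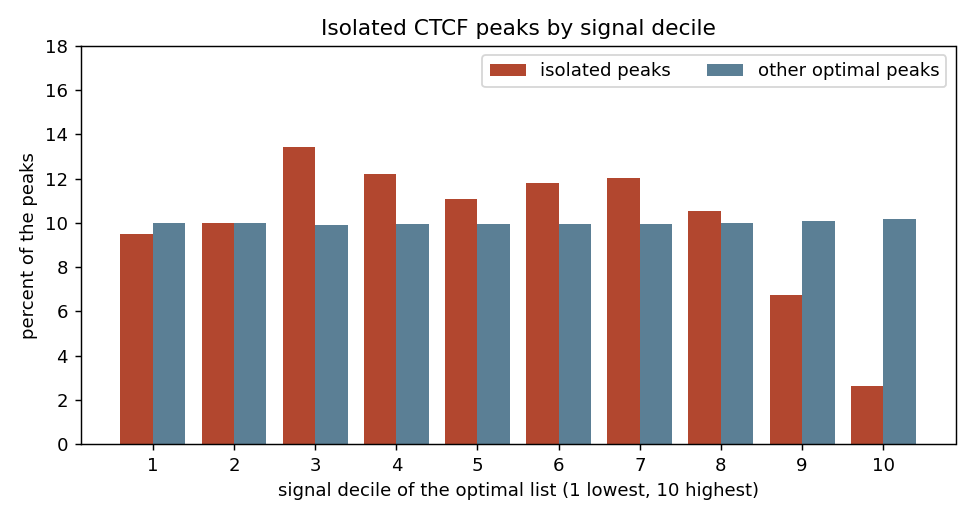
Share of peaks (y axis, percent) in each signal decile of the optimal list (x axis, decile 1 lowest) for isolated peaks and for other optimal peaks. Isolated peaks exceed the other peaks in deciles 3 to 8 and fall to 2.65% in decile 10, against 10.2% of other peaks.

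The isolated peaks of highest signal stood beside genes of varied function. The peak nearest Samd12 had signal percentile 99.2, ranked 351 in replicate 1 and 1156 in replicate 2, and lay 168 kb upstream of the TSS, with 285 kb to the summit on its left and 209 kb to the one on its right. The peak nearest Tcerg1l had percentile 99.02, with ranks of 738 and 727. Both are intergenic and have no protein-coding gene start within 100 kb. Rab32, which encodes a small GTPase of organelle traffic, had a peak 19 bp upstream of a TSS, at percentile 98.8, with ranks of 264 and 1796 and 481 kb to the next summit on its right. The peak 71 bp from a TSS of Ppp1r9a, which encodes the actin-binding protein neurabin, had percentile 98.4 and no motif match. Lmo3, a gene for a LIM-domain transcription cofactor, held a peak in an intron at percentile 97.3, and the nearest other summit was 306 kb away. Cpne8, a copine gene, had a peak 731 bp from a TSS at percentile 96.9. These 6 peaks were in the upper set of each library, that is, among its 65482 peaks of highest signal, a number equal to the length of the optimal list.

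The next 6 peaks by signal had percentiles between 94.5 and 95.1. Those nearest Pkn2, a protein kinase gene, and Nrsn1, a neuronal membrane protein gene, lay 497 and 663 kb from a TSS. The peak in an intron of Ppp2r2b, a regulatory subunit gene of protein phosphatase 2A on chromosome 18, and the intergenic peak nearest Frg1 had summits 107 and 129 kb away. The peak nearest Irx1, a homeobox gene of nephron patterning, lay 501 kb from it, with ranks of 4740 in replicate 1 and 3084 in replicate 2. The peak nearest Tent5a, a poly(A) polymerase gene, lay 1.22 kb from its TSS and had no other summit for 862 kb on its left. Each of the 6 had a motif match.

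The 6 most isolated peaks had signal percentiles from 5.46 to 66.7, beside a median of 44.4 for all isolated peaks. The 12 peaks above were picked by signal, so a comparison with them would say nothing. The peak nearest Vmn1r66, a vomeronasal receptor gene on chromosome 7, was 2435 kb from the next summit on its right and 3055 kb from the one on its left. Its signal percentile was 5.46, it ranked 69262 in replicate 1 and 99908 in replicate 2, and neither rank is in the upper set. Of the bases between its neighbours, 0.911% are unknown (N) in the assembly, and 48.8% of the bases within 100 kb of it are soft-masked, that is, marked as interspersed or simple repeats. A peak in an olfactory receptor cluster on chromosome 2, 9.98 kb from Olfr1177-ps, was 1188 kb from the nearest summit at percentile 66.7. The peaks nearest Tpm3-rs7 and Ptprd, a receptor phosphatase gene, had nearest summits at 1117 and 1091 kb and percentiles of 64.0 and 57.3. Those nearest Cdh7, a cadherin gene, and Efna5, an ephrin gene, had nearest summits at 1007 and 989 kb and percentiles of 58.5 and 38.3. All of these but the Vmn1r66 peak were in both upper sets, and between the neighbours of each of those 5 the assembly has no unknown bases. All 6 had a motif match.

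The 4 isolated peaks of lowest signal had percentiles of 0.199 to 1.82. They were nearest to Pcdh9, a protocadherin gene, Brinp1, Mug1, a protease inhibitor gene, and Chordc1. The peak nearest Pcdh9 lay 1778 kb from its TSS, and of the 4 the Chordc1 peak had a match. None was in the upper set of both libraries.

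Each library on its own listed most isolated peaks. The upper set of both libraries held 1132 isolated peaks, 76.9% (95% Wilson interval 74.7 to 79.0), beside 78.5% of all optimal peaks. A further 225 isolated peaks were in the upper set of replicate 1 alone, 45 in that of replicate 2 alone and 70 in neither. As a share this was 15.3%, 3.06% and 4.76% of isolated peaks, against 12.2%, 4.89% and 4.37% of other peaks. Agreement followed signal in both kinds of peak: none of the 140 isolated peaks of the lowest decile, against 8.25% of other peaks there, and 100% of both from decile 9 upward were in both upper sets. Ranks in the relaxed lists of the libraries had a Spearman's rho of 0.885 over 1424 isolated peaks and of 0.910 over other peaks. Points are peaks, both libraries share a biosample, and the optimal list was kept by a reproducibility threshold, so these values are descriptions.

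**Figure D2:**
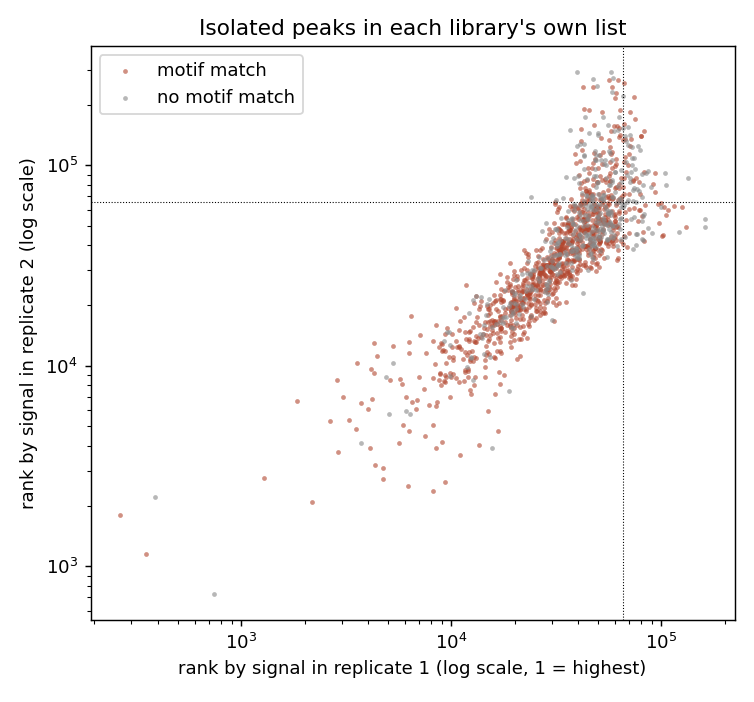
Rank by signal in replicate 1 (x axis, log scale) against rank in replicate 2 (y axis, log scale) for the 1424 isolated peaks matched in both relaxed lists, coloured by whether a motif match was found; dotted lines mark rank 65482, the end of the upper sets. The points lie along one band that widens towards high rank numbers, most of all in replicate 2; 1132 isolated peaks are in both upper sets.

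Being alone depended partly on which list was used. When the rule was applied to each library's own upper set, 1472 peaks were isolated in replicate 1 and 1437 in replicate 2. Of the 1472 isolated peaks of the optimal list, 1165 (79.1%) were listed and isolated in replicate 1, 992 (67.4%) in replicate 2, and 852 (57.9%) in both. These 852 peaks had a median signal percentile of 53.8, and 75.2% had a motif match. All of them are in both upper sets by this choice, so a signal above that of all isolated peaks is partly fixed by it. The motif share rose with signal, as given below. Below the threshold of the optimal list there was more. The relaxed list of the pooled libraries, with 300000 peaks, held a median of 8 further summits within 100 kb of an isolated peak, against 39 around other peaks. That list also holds neighbours of the optimal list, which the rule shuts out within 100 kb of isolated peaks, so part of this difference is fixed by the rule. The number around an isolated peak ran from 0, at 28 peaks, to 41.

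Isolated peaks stood in sequence with few genes. Within 100 kb of the summit 1120 isolated peaks, 76.1%, had no start of a protein-coding gene, against 17.2% of other peaks. The median distance to a TSS was 197 kb, with quartiles of 61.7 and 449 kb, against 10.8 kb for other peaks, with quartiles of 2.32 and 36.0 kb. With TSSs of genes of all kinds the medians were 33.4 kb for isolated and 6.32 kb for other peaks. At 72 of the 1472 isolated peaks the distance to a protein-coding TSS was over 1000 kb, against 86 of the 62324 other peaks. Sequence within 100 kb had a median of 38.6% G and C around isolated peaks and 45.0% around other peaks, and a median of 37.8% soft-masked bases against 28.0%. Within 250 bp of the summit the G and C share was 41.1% against 47.3%. The soft-masked share went the other way at the summit itself: 16.4% of isolated summits (interval 14.6 to 18.4) were soft-masked, beside 22.1% of all optimal peaks. An assembly gap lay within 100 kb of 22 isolated peaks, 1.49%, beside 1.14% of all optimal peaks.

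**Figure D3:**
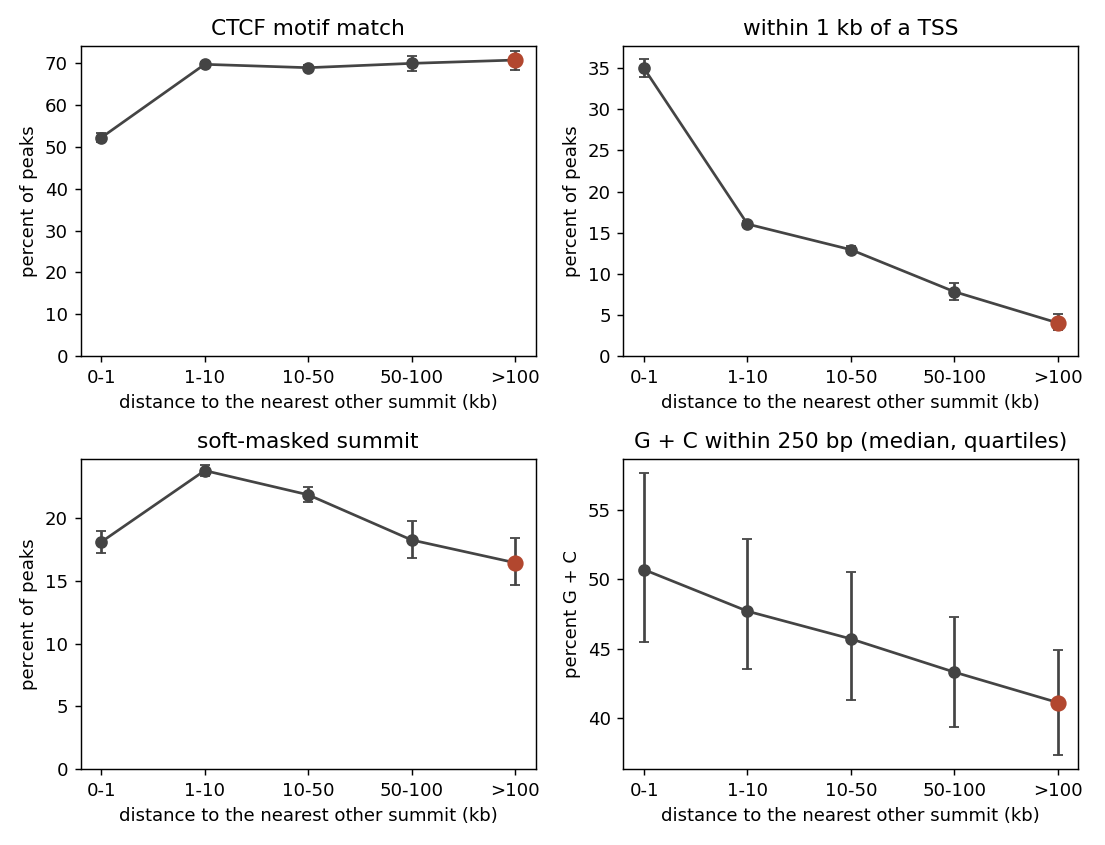
Share of peaks (percent, with 95% Wilson intervals) with a motif match, within 1 kb of a TSS or with a soft-masked summit, and median G and C share within 250 bp (with quartiles), by distance to the nearest other summit (x axis, kb); the red point marks isolated peaks. The promoter share falls at each step to 4.08% at isolated peaks, while the motif share lies between 68.8% and 70.6% in all bins beyond 1 kb.

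Over bins of distance to the nearest summit, several of these values changed step by step. The promoter share was 35.0% with a summit within 1 kb, 16.1% at 1 to 10 kb, 13.0% at 10 to 50 kb, 7.87% at 50 to 100 kb and 4.08% at isolated peaks (interval 3.18 to 5.21), beside 16.7% of all optimal peaks. The median G and C share within 250 bp was 50.7%, 47.7%, 45.7%, 43.3% and 41.1% in the same order. The motif share did not follow this pattern. It was 52.1% with a summit within 1 kb and 69.6%, 68.8%, 69.8% and 70.6% in the bins beyond.

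A motif match lay within 100 bp of the summit at 1039 isolated peaks, 70.6% (interval 68.2 to 72.9), beside 67.3% of all optimal peaks. Away from promoters the shares were 71.9% of isolated and 72.3% of other peaks. In windows 2 kb from the summits they were 0.611% around isolated and 2.56% around other peaks. The rule keeps other optimal summits out of the windows around isolated peaks but not out of the rest, so part of this difference is fixed by it. By distance to the nearest summit the window share was 3.08% at 0 to 1 kb, 3.24% at 1 to 10 kb, 1.43% at 10 to 50 kb and 0.993% at 50 to 100 kb. The sign of the overall difference rested on the motif model. With a matrix learned from all sequence, repeats included, 33.5% of isolated and 39.9% of other peaks had a match, and a short fixed pattern (CCA, any 2 bases, AG, any 2 bases, GGC), searched on both strands and lying within the span of the matrix, was found at 30.4% and 34.5%. In the windows 2 kb away that pattern occurred at 0.306% and 1.93%, with the same limit. On even-numbered chromosomes, from which the matrix was not learned, 68.6% of isolated and 66.99% of other peaks had a match.

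Motif and signal went together in both kinds of peak, over a narrower range in isolated ones. The motif share was 54.3% in the lowest decile of signal and 84.6% in the highest for isolated peaks, against 35.6% and 93.4% for other peaks. The highest decile held only 39 isolated peaks. In the lowest, 7.14% of isolated and 25.7% of other peaks were promoter peaks, which had a match less often (40% and 42.4%). The part of this in the range was not tested. Isolated peaks with a match had a median signal percentile of 50.6, against 60.6 for other peaks with a match. Without a match the medians were 30.8 and 31.4. The median match score was 16.5 bits at isolated and 17.0 bits at other peaks, and the centre of the match lay a median of 5 and 6 bp from the summit. At isolated peaks with a soft-masked summit the motif share was 79.3% and the median signal percentile 31.5, against 68.9% and 47.9 at isolated peaks whose summit was not soft-masked. Of the 1039 matches, 982 were different sequences. The most frequent one, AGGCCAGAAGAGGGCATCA, occurred at 11 isolated peaks and also led among other peaks, with 694 occurrences.

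Where neighbouring peaks both had a match, their directions were compared. The forward strand held 532 matches of isolated peaks and the reverse strand 507. Of 1157 pairs of an isolated peak and its neighbour, 24.9% were convergent, with motifs pointing at each other (interval 22.5 to 27.5), 57.1% were in tandem (54.3 to 59.95) and 18.0% were divergent (15.9 to 20.3). Among 1190 pairs that also lay over 100 kb apart but held no isolated peak, 34.9% were convergent (32.2 to 37.6), 49.5% were in tandem (46.7 to 52.3) and 15.6% were divergent (13.7 to 17.8). The convergent share was thus lower beside isolated peaks than in those pairs, and the tandem share higher. The pairs share only the minimum distance and were not matched on length. The 284 pairs of 2 isolated peaks, which are part of the 1157, were convergent in 29.2% (24.2 to 34.8). That interval overlaps the one of the 1190 pairs without an isolated peak. Neighbours 10 to 100 kb apart had 23.0% convergent and 24.3% divergent pairs. A peak can belong to a pair on each side, so pairs are not independent. The convergent share was lower beside isolated peaks with each library's own upper set too: 28.1% against 33.1% without replicate 1, and 24.6% against 33.3% without replicate 2. With the matrix learned from all sequence the convergent shares were 29.3% of 280 pairs beside isolated peaks and 32.0% of 337 others. The tandem shares were 50% and 49.9%, so the tandem difference was not seen there. The convergent difference was smaller there, and no interval was made for it. With the stricter motif threshold 20 pairs beside isolated peaks and 28 others were left, and the tandem shares were then 50% and 53.6%.

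**Figure D4:**
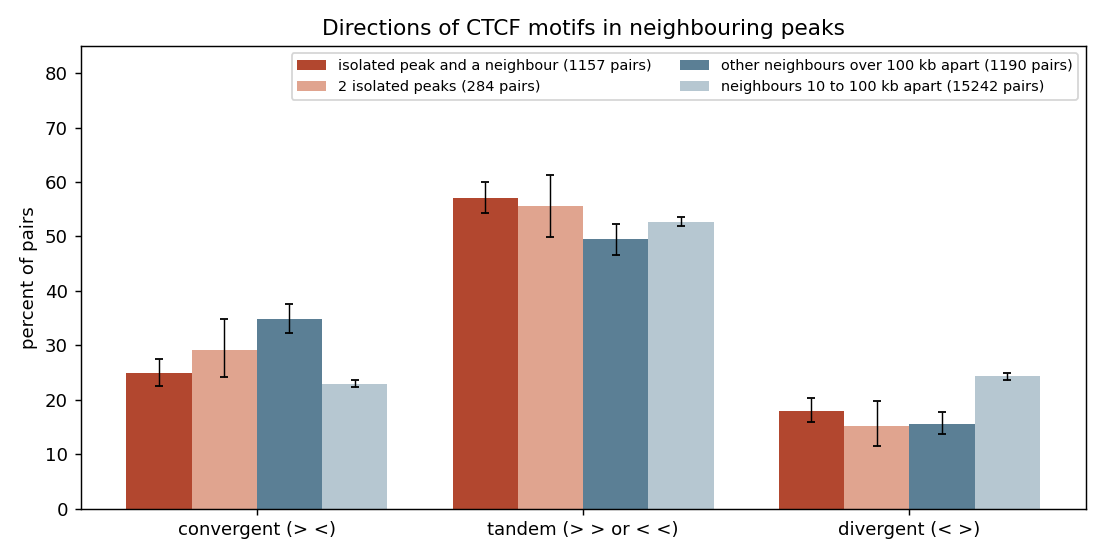
Share of pairs of neighbouring peaks (y axis, percent, with 95% Wilson intervals) whose motifs are convergent, in tandem or divergent, for pairs with an isolated peak, pairs of 2 isolated peaks, other pairs over 100 kb apart and pairs 10 to 100 kb apart. Pairs with an isolated peak are convergent in 24.9% and in tandem in 57.1%, against 34.9% and 49.5% of other pairs over 100 kb apart. Pairs of 2 isolated peaks are also counted among the pairs with an isolated peak.

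By annotation 947 isolated peaks were intergenic, 64.3% against 34.7% of other peaks. Introns of protein-coding genes held 334 (22.7% against 37.9%), bodies of genes of other kinds 117 (7.95% against 5.81%), promoters 60 (4.08% against 17.0%), coding exons 5 and other exons of protein-coding genes 9. Intronic isolated peaks had a median signal percentile of 47.4 against 48.3 for other intronic peaks, while for intergenic peaks the medians were 42.9 and 56.0.

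The 60 isolated promoter peaks were short of motifs, as promoter peaks were elsewhere: 40% had a match, against 42.4% of other promoter peaks. Their local G and C share was 56.7%, above the 40.7% of other isolated peaks. Besides Rab32, Ppp1r9a and Cpne8, the highest were at Ermard, at percentile 86.6, Tox, which encodes an HMG-box regulator of T cell development, at 83.6, and Npy1r, a neuropeptide Y receptor gene, at 77.6. The Tox peak lay 540 bp and the Npy1r peak 67 bp from a TSS, and all 3 had a motif match and were in the upper set of both libraries.

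Genes that hosted an isolated peak were long. The host genes had a median length of 487 kb over 387 isolated peaks in the body of a protein-coding gene, against 79.9 kb for other peaks. Of 218 protein-coding genes over 500 kb, 108 (49.5%) held an isolated peak in their body, beside 1.45% of all 20780 protein-coding genes. The highest in such genes were in Vps13b, a lipid-transfer protein gene (percentile 94.1), Nkain2 (91.7), Lrmda (91.2) and Tenm2, a teneurin gene for synaptic adhesion (90.8). Most hosts held 1 isolated peak (249 genes), 31 held 2, 13 held 3, 5 held 4, 3 held 5 and 1 held 7. Those with the most, singled out after their values were seen, were Lrp1b, a giant lipoprotein receptor gene, with 7 of the 8 optimal peaks in its 2058 kb, and Cntnap2, Lsamp and Macrod2 with 5 each. Lsamp and Cntnap2 held 22 and 19 optimal peaks in all. In Lrp1b the signal percentiles ran from 3.72 to 46.7, and in Lsamp those of the isolated peaks ran from 57.2 to 90.6.

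Isolated peaks also came in rows. An isolated peak was the immediate neighbour of another at 917 of the 1472, and 555 stood alone between peaks that were not isolated. By the rule, the neighbour of an isolated peak already has a gap over 100 kb on the side that faces it. Part of this is therefore built in, and no background share was made for it. Among the longest rows, also singled out after seeing the data, were 9 peaks over 2.41 Mb of chromosome 2, nearest to Lrp1b and Kynu, 8 over 4.97 Mb of chromosome 1 around Brinp3, Rgs18, Rgs21 and Pla2g4a, and 8 over 1.87 Mb of chromosome 13 between Nr2f1, a nuclear receptor gene, and Arrdc3. A row of 6 spanned 4.24 Mb of the olfactory receptor cluster on chromosome 2. By chromosome the isolated share of peaks ran from 1.16% on chromosome 11, which had 39.7 optimal peaks per Mb, to 4.13% on chromosome 3, which had 19.96.

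Gene lists showed which genes lay beside isolated peaks. A gene counted as beside one if it held it or, where no protein-coding gene held the peak, had the nearest TSS. This was so for 961 of 20780 protein-coding genes, 4.62%. Of genes for neuronal adhesion and synapses, which encode contactins, neurexins, glutamate receptors and the like, 43 of 54 (79.6%) were beside an isolated peak. The highest were in Tenm2, Lsamp, at percentile 90.6, and Dlg2, a synaptic scaffold gene, at 90.0. These genes have a median length of 881 kb against 17.6 kb for all genes, and of all 218 genes over 500 kb 65.1% were beside one. Cadherins and non-clustered protocadherins had 20 of 33, led by peaks near Cdh6 (85.5), Cdh18 (85.02) and Pcdh10 (82.6). Axon guidance genes had 20 of 36, led by Sema5a (83.7), Epha6 (76.4) and Plxna4 (74.96), all 3 in introns with a motif match. Potassium channels had 15 of 34, led by peaks near Kcnj2 (81.9), Kcnmb2 (80.3) and Kcnd2 (79.9). The Kcnd2 peak lay 1.49 kb from its TSS, with 321 kb to the nearest other summit. Genes of these lists are long too, with medians of 123 kb for cadherins and protocadherins, 202 kb for axon guidance and 209 kb for potassium channels. The part of length in their shares was not tested, and the lists were chosen with earlier results of these data known.

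Transcription factors of developmental gene deserts, short genes known for distant enhancers, had 21 of 59 (35.6%) beside an isolated peak at a median length of 20.4 kb. The highest were near Irx1 and Ebf1 and at the Tox promoter. Only 4 of the 59 genes held an isolated peak in the body. The list is of genes beside deserts, and a peak without a host goes to the nearest TSS. Part of its share is therefore built in, whatever the length of the genes. Among kidney lists, renal stroma genes had 8 of 23 (34.8%), while the others had between 4.76% and 16%. The lists overlap: Ebf1, Meis1 and Nr2f2 were counted both in the stroma list and among the transcription factors of gene deserts. Irx1, Tfap2b and Sox9, from other kidney lists, were counted among those factors too. Cdh6 and Cdh5 were also counted among the cadherins, and Robo2 also in axon guidance. In the stroma list the peak 96.2 kb from Ebf1, a factor of mesenchymal and B cells, had percentile 92.8. The one nearest Dcn, the gene of the matrix proteoglycan decorin, had 82.7, and one in an intron of Col3a1, a fibrillar collagen gene, 2.49 kb from a TSS, had 79.5. All 3 were in the upper set of both libraries.

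The other kidney lists had smaller shares than the stroma list. Of loop of Henle and distal tubule genes 4 of 25 had one, with Irx1, Ptger3, a prostaglandin receptor gene (percentile 93.6), and Esrrg, an orphan nuclear receptor gene, in whose intron the peak had 57.8. Podocyte genes had 2 of 22, Robo2 and Magi2, a slit diaphragm scaffold gene. The 3 highest peaks near or in Magi2 had percentiles of 73.8, 63.1 and 57.8, and the lowest of the 4 in its body had 13.97. Proximal tubule genes had 2 of 25, led by 3 peaks of the desert upstream of Cdh6, 686 to 1455 kb from its TSS, at 42.9 to 85.5. Ureteric bud and collecting duct genes had 2 of 25. They were Sox9, with a peak 573 kb upstream at 83.1, and Gata3, with peaks 409 and 795 kb from it at 46.2 and 47.0. Of nephron progenitor genes 1 of 21 had one, Osr1, an early regulator of the kidney field, with a peak 259 kb away at 37.4. Among the peaks of these lists given here by value, a match was missing at the farther Magi2 peak, the highest Cdh6 peak and both Gata3 peaks, and at the Dcn peak.

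In lists of other cell types and of chemosensory receptors the shares lay between 0 and 10%. Endothelial genes had 2 of 20, Emcn (54.0) and Cdh5 (27.6), and hepatocyte genes 1 of 20, Apob, with peaks at 41.0 and 5.65. None of 22 immune and none of 15 erythroid genes was beside an isolated peak. Olfactory receptors had 25 of 1127 (2.22%), led by Olfr1009 (85.2), Olfr996 (84.3) and Olfr957 (82.2). Vomeronasal receptors had 21 of 328 (6.40%), led by Vmn1r21 (84.2), Vmn2r73 (67.3) and Vmn2r76 (66.1). These receptor genes are short and clustered, and a peak was counted for the genes that held it or else for the single nearest one.

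**Figure D5:**
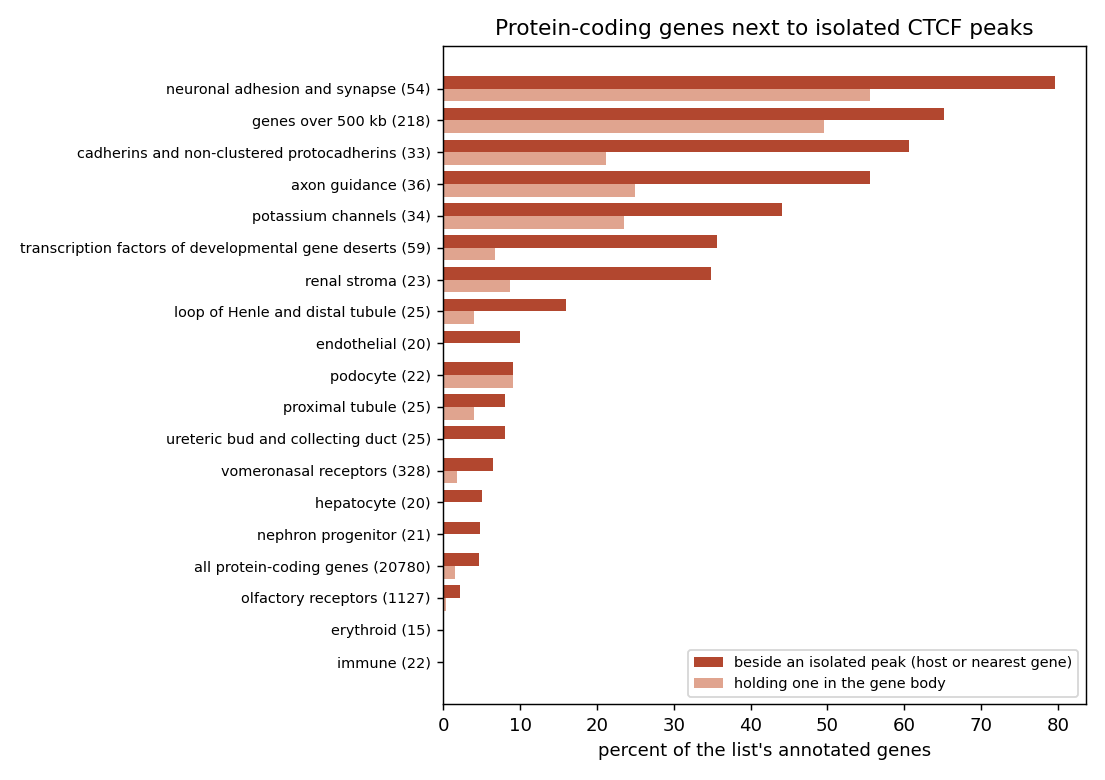
Share of each list's annotated protein-coding genes (x axis, percent; list size in brackets) that lie beside an isolated peak, as host or nearest gene, or hold one in the gene body. The share is highest for neuronal adhesion and synapse genes at 79.6% and for genes over 500 kb at 65.1%, against 4.62% of all protein-coding genes.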

How the data were processed

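The assay was ChIP-seq for CTCF on 2 libraries of newborn kidney. Per the notes deposited beside them, the authors made 5 narrowPeak lists on mm10: 1 per library, 1 from both pooled (300000 peaks each), and 2 lists kept for reproducibility, a conservative one (59444) and an optimal one (65482). Per the same notes, these 2 lists derive from the other 3 and 1 further file whose role is not stated. For the aligner, the peak caller and the threshold, nothing is stated: not given in the sources used here. The deposited signal value depends on depth, so only its order within each list was used. The deposited −log10 q-value column was not used for ranking. Without counts in any list, the depth behind a peak is unknown.

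Summits are the interval start plus the deposited offset. Identical intervals were counted as 1 peak unless their summits differed by more than 500 bp, and the one of higher signal was kept. Distances, percentiles and shares use chromosomes 1 to 19. TSSs and genes are those of GENCODE M21 for protein-coding genes. The upper set of a library holds its 65482 peaks of highest signal, and peaks were matched by overlap of at least 1 bp. The matrix of 19 bases was learned in 10 rounds from non-isolated peaks on odd-numbered chromosomes, within 100 bp of the summit, with soft-masked bases left out. The threshold for a match was the score reached at 1 in 10000 positions of control windows 2 kb away. Assembly gaps are runs of at least 100 unknown bases. Members, gene lists and comparisons were chosen with earlier results of these data known. The text names the 12 isolated peaks of highest signal, the 6 farthest, the 4 lowest, 6 promoter peaks, 4 in genes over 500 kb and up to 3 per gene list, by rule. The isolation rule, interval matching and motif search were tested on simulated data. The simulated sites were drawn from the degenerate starting pattern, not from the learned matrix, and most scored below the threshold set in the simulation. How often the real matrix misses a site is therefore not known, and a peak without a match may hold a weaker site. Python 3.11.15, numpy 2.4.6, pandas 2.3.3, scipy 1.17.1 and pysam 0.24.0 were used.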

Additional observations from a re-analysis of the deposited data

How the results depend on the processing

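No paired analysis was possible because the 2 libraries form 1 group and nothing was tested. The lists hold no counts, so depth limits every share by an unknown amount. Among the results compared below, values not named moved by less than 1 SD of the 2 libraries' values, or, for the number of peaks, by less than 1.5 times. Where values moved, the cause was not tested, except that a longer distance leaves fewer peaks.

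With a distance of 50 kb 4091 peaks were isolated, and with 200 kb 421. The share in the upper set of both libraries was 89.2% with the conservative list. For isolated peaks taken from the upper set of replicate 1 it was 76.0%, and from that of replicate 2 89.4%. Those peaks are in their own library's upper set by construction, so these values only show how many the other library listed. The motif share was 72.4% with the conservative list, 69.4% with the upper set of the pooled list, 71.5% at 200 kb and 69.0% to 70.0% with 1 library left out. It was 69.6% with 50 bp on each side of the summit, 33.5% with the matrix learned from all sequence, 30.4% with the short fixed pattern and 8.90% at a score reached at 1 in 100000 control positions (10.6% of other peaks). The promoter share was 4.78% with the conservative list, 6.502% at 50 kb, 2.14% at 200 kb, 6.18% with promoters of 2500 bp on each side, 7.34% with TSSs of all biotypes and 3.83% to 4.01% with 1 library left out. The soft-masked share was 14.5% with the conservative list. The median distance to a TSS was 184830 bp with the conservative list, 100020 bp at 50 kb, 364006 bp at 200 kb, 33391 bp with TSSs of all biotypes and 184056 to 191670 bp with 1 library left out.

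Alternatives for the motif pairs were chosen after seeing the data. The convergent share was lower beside isolated peaks than in other pairs over 100 kb apart in each of them, but no intervals were made. With the matrix learned from all sequence (280 and 337 pairs) and the stricter score (20 and 28 pairs) few pairs were left. Whether the difference there exceeds counting error was not tested. Beside isolated peaks it was 24.6% to 28.1% with 1 library left out, 29.3% with the matrix learned from all sequence and 30% with the stricter score (20 pairs). In the other pairs it was 33.1% to 33.3%, 32.0% and 39.3%, and 34.3% with the conservative and 34.2% with the pooled list. The tandem share beside isolated peaks was 53.7% to 59.0% with 1 library left out and 50% with either other motif setting. In the other pairs it was 49.96% to 50.2%, 49.9% and 53.6%, and 49.3% with the pooled list.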
